A study of Mus musculus with 20 samples.

Results

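Mammary glands of tamoxifen-treated mice were compared by what later happened to the animals: 3 went on to have a mammary tumor and 7 had none observed. These 10 of the 20 animals in the series were chosen by their labelled treatment and outcome alone, with no measured value. All 20 animals were FVB/N females of the line 1372-1 TgN(Nrl-tgfalpha)29EPS, heterozygous for a transgene that makes transforming growth factor alpha (TGFα) under the Nrl (neu-related lipocalin) promoter, which is active in mammary epithelium. The tamoxifen animals were given an implant releasing 5 mg of the drug at 8.5 weeks of age, and a tumor-free number 4 gland was taken at 20.5 to 21 weeks, which the labels place 4 weeks after treatment ended and the series' design text 30 days. Follow-up ran to at most 2 years of age. The placebo animals carried the same transgene and had an implant of carrier without the drug. They comprised 7 animals with a later tumor and 3 without, and are used only to ask whether the outcome difference was the same without tamoxifen. Each animal gave 1 gland and 1 array, so the controls carry the transgene too and every group stands for whole glands of a single transgenic line.

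TGFα is a ligand of the epidermal growth factor (EGF) receptor and drives growth of mammary epithelium. Tamoxifen is a selective oestrogen receptor modulator that blocks oestrogen action in mammary tissue. The gland is a tree of epithelial ducts in fat: its luminal progenitor cells need the transcription factor Elf5 and can form milk-secreting alveolar cells, in which prolactin acts through Jak2 and Stat5 to switch on the casein genes. Hormone-sensing luminal cells carry the oestrogen and progesterone receptors, and stromal fibroblasts supply collagen and Wnt-pathway signals to the ducts.

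The values were log2 expression per probe set. Pairwise correlations of the 10 tamoxifen arrays ran from 0.989 to 0.997, array medians lay between 6.82 and 6.87, and no 2 arrays were identical. The first and second principal components held 35.8% and 16.6% of the variance. No-tumor animal 8 lay farthest out on the first, at -22.33, and tumor animal 10 farthest out on the second, at 14.76. Mammary fat and epithelium were both plain in the glands: Adipoq, the adipocyte hormone adiponectin, was between 13.96 and 14.19 on the log2 scale in all 10 glands, and Epcam, a pan-epithelial adhesion protein, between 9.58 and 10.71. Skeletal muscle genes varied more than either, with a list mean of 6.96 to 8.51 in the tumor group and 7.53 to 10.44 in the no-tumor group. In whole glands, fewer cells of a type and less RNA per cell cannot be told apart. The labels do not say whether same-group animals shared a litter or cage, so their independence is not known. Each p-value sets a group difference against the spread between these animals.

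Glands of animals with a later tumor had higher values of Postn, Fos and Sfrp2 and lower values of Akr1cl and Prtn3, and 2 of the 3 had far higher values of the caseins. No single gene passed limma with Benjamini-Hochberg adjustment over the 12499 genes tested (0%). The smallest adjusted p was 0.053. An unadjusted p under 0.05 was reached by 382 genes (3.06%), 192 higher (1.54%) and 190 lower (1.52%) with a later tumor. If no gene differed, a share of about 0.05 of genes would reach it on average, which is more than was seen. The count alone therefore does not show that any gene differed. In 159 genes (1.27%) the tumor and no-tumor groups did not overlap, 72 with all 3 tumor values above (0.576%) and 87 with all below (0.696%). That number is a description and was not tested. A difference of 1 or more on the log2 scale, which is 2-fold, was reached by 35 genes (0.28%), 16 higher and 19 lower, and of these 17 had an unadjusted p under 0.05. The median log2 difference over all genes tested was -0.02, and 38.5% of genes lay above 0. When the same contrast was taken from a fit of all 20 arrays in 4 groups, 1 gene passed (0.008%), Akr1cl with limma adjusted p = 0.0138. In the fit of the 10 tamoxifen arrays alone, the count was 6 without tumor animal 1 and 5 without no-tumor animal 3. With any other single animal left out it was 0 to 2. In what follows, differences are later tumor minus none with their SE, and none passed the adjusted threshold unless that is said. Counts of list members at an unadjusted p under 0.05 stand beside the 1.54% of all genes higher and 1.52% lower.

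**Figure D1:**
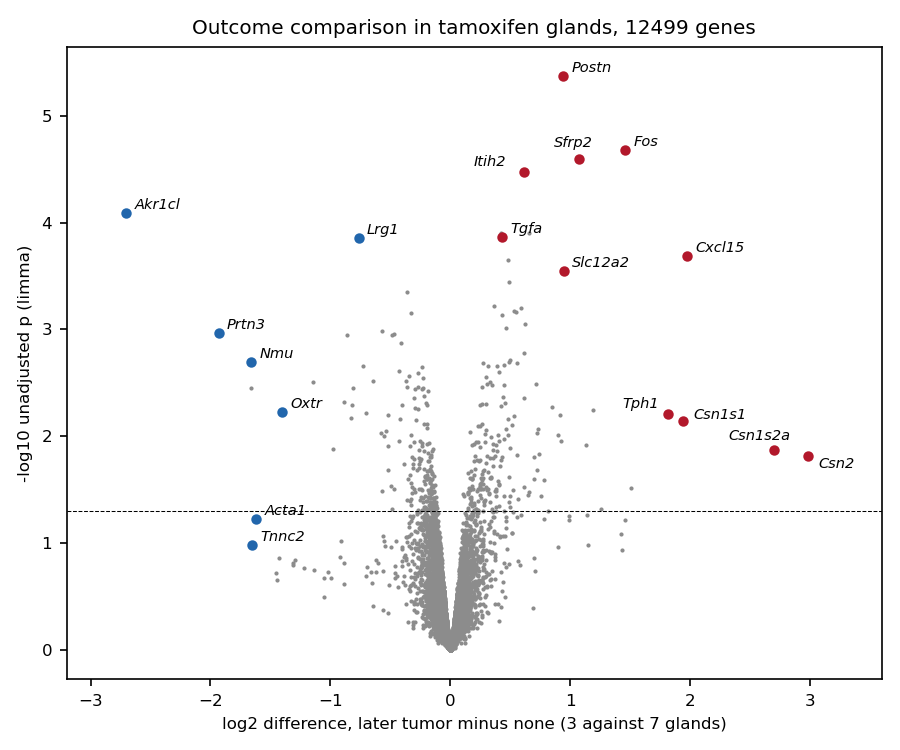
Each grey point is 1 of 12499 genes, with the log2 difference (later tumor minus none, 3 against 7 tamoxifen glands) on the x axis and -log10 of the unadjusted limma p on the y axis. The dashed line marks an unadjusted limma p of 0.05, and red and blue points name genes described in the text. Postn has the smallest p, the casein genes Csn2 and Csn1s2a the largest positive differences, and Akr1cl the largest negative one, at -2.70.

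The gene with the smallest p was Postn (Entrez ID 50706), which encodes periostin, a matrix protein secreted by fibroblasts. Its log2 values were 12.72, 12.38 and 12.19 in tumor animals 1, 2 and 10, and the 7 no-tumor animals had a lowest value of 11.21, a median of 11.51 and a highest value of 11.63. All 3 tumor values were above all 7 others, by at least the whole no-tumor range. The log2 difference was 0.94 ± 0.11, 1.92-fold, with a limma adjusted p of 0.053. Postn passed in 9 of the 27 other settings tried, with an adjusted p as low as 0.0119, among them the fits without tumor animal 1 or 10 or no-tumor animal 3 or 8. Without tumor animal 2 its adjusted p was 0.442, although the log2 difference lay between 0.80 and 1.06 with any 1 animal left out.

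Fos, an immediate early transcription factor subunit induced by growth factor signals, came next. The tumor animals had log2 values of 9.96, 10.38 and 9.41, and the no-tumor animals ran from 8.04 through a median of 8.47 to 8.94. The groups did not overlap, and the log2 difference was 1.46 ± 0.21, 2.75-fold (limma adjusted p = 0.105). Of all genes, 1.54% were higher at an unadjusted p under 0.05 and 1.52% lower. On the immediate early list, 3 of 19 members tested were higher at that level and none lower. The others were Egr1 (log2 difference 0.72 ± 0.27) and Egr2 (0.74 ± 0.26), both growth-factor-induced transcription factors, and the tumor and no-tumor values of each overlapped. Jun (0.21), Junb (0.05), Atf3 (-0.20) and Nr4a1 (-0.30), which are induced by many of the same signals, did not reach that level, and the list's median log2 difference was 0.03. Without tumor animal 1, 1 member of that list was higher at an unadjusted p under 0.05.

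Several secreted regulators of Wnt signalling were high in the tumor group. Sfrp2, a secreted frizzled-related protein that binds Wnt ligands, had log2 values of 8.59, 8.94 and 8.78 against a no-tumor range of 7.37 to 8.12 with a median of 7.76. The log2 difference was 1.07 ± 0.16, 2.11-fold (limma adjusted p = 0.105). Wnt2, a ligand, had log2 values of 7.49, 7.32 and 7.83 against 6.77 to 7.21 with a median of 7.03, a difference of 0.55 ± 0.12. Neither gene's groups overlapped. Rspo1, which strengthens Wnt signals and acts in the mammary gland (0.25), and the receptor Fzd1 (0.23) were also higher at an unadjusted p under 0.05, Rspo1 with both group means below 6.85, the level used as the filter on low values. These were 4 of 26 Wnt pathway members tested, with none lower, against 1.54% of all genes, and the count was 2 without tumor animal 1. Axin2, a direct target of Wnt signalling through beta-catenin, had a log2 difference of -0.07, Lef1, a nuclear partner of beta-catenin, -0.14 and Wnt4, the ligand that acts downstream of progesterone, 0.21. The median of the list was 0.04.

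The same stromal side of the gland held genes that differed in both directions. At an unadjusted p under 0.05, 1.54% of all genes were higher and 1.52% lower. Of 29 collagen and matrix members tested, 5 were higher and 4 lower at that level. Of these 29 members, 18 were below 0, with a median log2 difference of -0.11. Beside Postn, the higher ones were Hmcn1, the matrix protein hemicentin (0.71 ± 0.19, no-tumor mean below 6.85), Fn1, fibronectin (0.49), Lama2, a laminin chain of basement membrane (0.29), and Col18a1, a basement membrane collagen (0.25). The lower ones were Thbs1 (-0.97) and Thbs2 (-0.81 ± 0.22), thrombospondins that restrain vessel growth, and both chains of type I collagen, Col1a1 (-0.71 ± 0.21) and Col1a2 (-0.33). Without tumor animal 1 or 10 the higher members were 3 rather than 5. The lower ones numbered 2 without tumor animal 2 and 6 without no-tumor animal 8.

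Col1a1 shows the spread of the lower group. Its log2 values were 11.83, 11.09 and 11.48 in the tumor animals and ran from 11.66 through 12.27 to 12.56 in the no-tumor animals. Tumor animal 1 lay above the lowest no-tumor value, so the groups overlapped, while a second probe set for Col1a1 differed by -1.03 on the log2 scale. For Thbs2 the tumor values of 9.92, 9.66 and 9.97 were all below the lowest no-tumor value of 10.05. On the fibroblast list, 2 of 15 members were higher (Postn and Lum, a collagen-binding proteoglycan, 0.38) and 1 lower (S100a4, a calcium-binding protein of motile cells, -0.57) at an unadjusted p under 0.05. Of all genes, 1.54% were higher and 1.52% lower at that level. The fibroblast list had a median of 0.13. Its mean level overlapped between the groups, at 11.00 to 11.12 with a later tumor and 10.58 to 11.17 without. Pdgfra and Pdgfrb, receptors that define fibroblasts and perivascular cells, both differed by 0.17.

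Among other genes with the smallest p, several were modest and tight. Itih2, a chain of the inter-alpha-inhibitor family that binds hyaluronan, had log2 values of 6.61, 6.65 and 6.62 against 5.80 to 6.25, and its difference was 0.61 ± 0.09. Itm2a, an integral membrane protein, was at 10.72, 10.73 and 10.71 against 9.74 to 10.31, a log2 difference of 0.59 ± 0.12. Osr1, a transcription factor of mesenchyme, was at 8.89, 8.93 and 8.97 against 8.23 to 8.72, a difference of 0.43 ± 0.09. In these 3 genes the tumor animals were close to one another and lay above every no-tumor animal.

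Gas1, a membrane protein that binds hedgehog (0.42 ± 0.07), Cntn1, a neural cell adhesion protein (0.66 ± 0.11), and Fibin, a secreted protein (0.36 ± 0.08), were higher on the log2 scale without overlap. So were Scg3, a secretory granule protein (0.62 ± 0.14), Crispld1 (0.46 ± 0.10), Slc35f3 (0.49 ± 0.10) and Il17b, a cytokine of the interleukin 17 family (0.48 ± 0.09). The no-tumor means of Itih2, Cntn1, Slc35f3 and Crispld1 were below 6.85, so the sizes of their differences are uncertain. Slc12a2, the sodium-potassium-chloride cotransporter of secretory epithelia, had log2 values of 10.90, 10.54 and 10.97 against 9.50 to 10.34 with a median of 9.73. Its difference was 0.94 ± 0.18, and its other 2 probe sets gave 0.99 and 1.03.

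The 24 genes with the smallest p included 18 higher and 6 lower with a later tumor, and the groups did not overlap in 23 of them. Because p chose them, that count is a description. Prtn3 was the one with an overlap, and its values and those of the other lower genes follow.

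**Figure D2:**
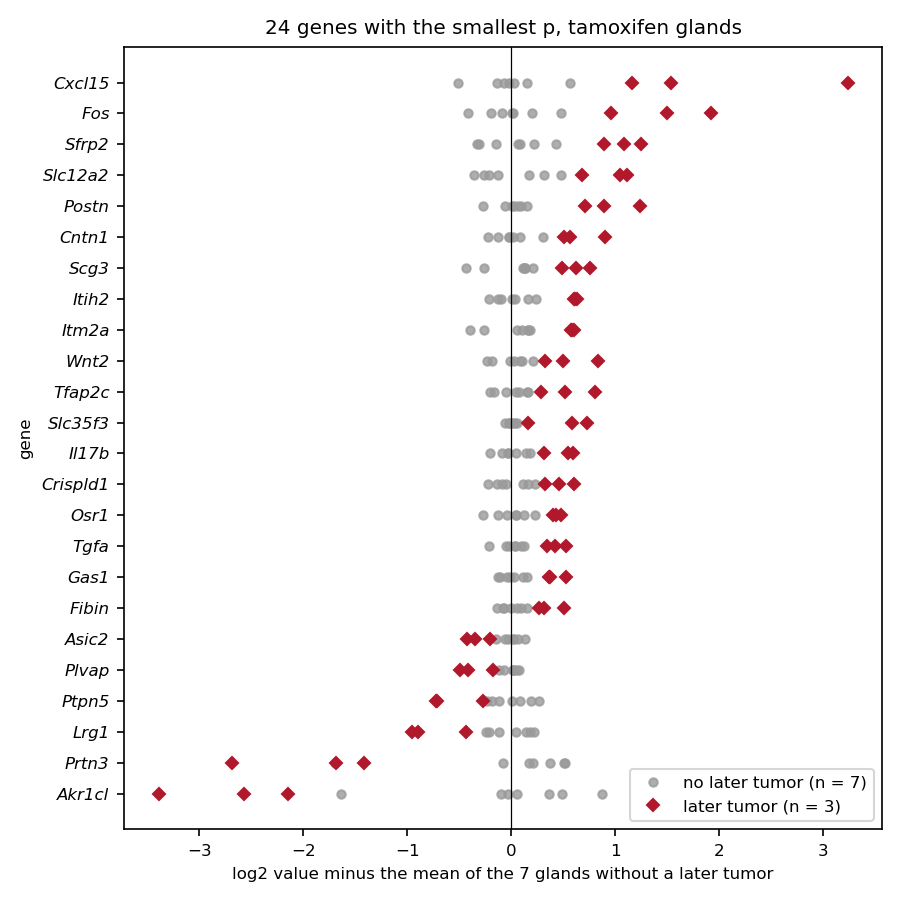
Log2 values of the 24 genes with the smallest limma p, each minus the mean of the 7 no-tumor glands, with 1 grey circle per no-tumor animal and 1 red diamond per tumor animal. Most red diamonds sit within 1 log2 unit of 0 and clear of the grey circles, while those of Akr1cl, Prtn3, Cxcl15 and Fos reach farthest, and 1 grey circle, no-tumor animal 3, sits apart on the left for Akr1cl (10.06) and Prtn3 (8.76, behind a red diamond).

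Akr1cl (Entrez ID 70861), a member of the aldo-keto reductase family whose relatives reduce steroids, had the lowest difference of all genes. Its log2 values were 9.13, 8.31 and 9.55 in the tumor animals, and the no-tumor animals had 10.06, a median of 11.76 and a highest value of 12.57. The groups did not overlap, and the log2 difference was -2.70 ± 0.45, 6.51-fold lower (limma adjusted p = 0.194). In placebo glands Akr1cl was low whatever the outcome, with log2 values of 7.62 to 8.78 in animals with a later tumor and 7.73 to 8.17 in those without. So 2 of the 3 tamoxifen tumor animals, 1 and 10, were above all 10 placebo animals, and the third was within their range. The 4-group fit called the gene (limma adjusted p = 0.0138), as did the fit without no-tumor animal 3 (0.00931). Akr1cl passed in only 3 of the 27 other settings tried. With 1 animal left out its limma adjusted p was as high as 0.889, although the log2 difference lay between -2.98 and -2.36.

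Prtn3, the neutrophil granule proteinase 3, had a similar pattern over animals. The tumor values were 8.76, 7.76 and 9.03, and 6 of the no-tumor values were between 10.37 and 10.96 on the log2 scale while no-tumor animal 3 was at 8.76. The log2 difference was -1.93 ± 0.44, 3.81-fold lower (limma adjusted p = 0.526). Elane, which neutrophil precursors make together with Prtn3, differed by -0.01, Csf3r by 0.11 and S100a8 by 0.12, while Mpo and Ctsg were not among the genes tested. On the neutrophil and granule list 1 of 9 members tested was lower (Prtn3) and 1 higher (Lcn2) at an unadjusted p under 0.05. Of all genes, 1.52% were lower and 1.54% higher at that level. The list's level was 7.52 to 7.94 with a later tumor and 7.57 to 7.86 without.

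Other genes with a 2-fold difference followed the same animals, and were chosen for mention after their values were seen. Oxtr, the oxytocin receptor of myoepithelial cells, had log2 values of 8.66, 8.81 and 8.71 against 8.86 to 11.24 with a median of 10.02, a difference of -1.40 ± 0.41. A second Oxtr probe set, with a mean log2 value of 7.49 over the 20 arrays, differed by -0.51. Nmu, the neuropeptide neuromedin U, was at 6.09, 6.12 and 6.59 against 6.84 to 8.90, a difference of -1.66 ± 0.41. Mmd2, a membrane protein of the progestin and adipoQ receptor family, was at 8.29, 7.85 and 8.87 against 8.63 to 11.11, a difference of -1.66 ± 0.45. Other Mmd2 probe sets, with mean log2 values of 8.24 and 6.69, differed by -2.21 and 0.02. In Oxtr, Nmu and Mmd2, as in Akr1cl and Prtn3, no-tumor animal 3 had the lowest of the 7 no-tumor values. Pcp4, a calmodulin-binding peptide, differed by -1.15 ± 0.30 without overlap, and there animal 4 was the lowest. The tumor means of Nmu (6.27) and Pcp4 (6.26) were below 6.85, as were both placebo means of each, so they passed the filter through the tamoxifen no-tumor group, where they were high, and the sizes of their differences are uncertain.

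Other basal and myoepithelial genes had smaller differences than Oxtr. Of 19 members tested, Oxtr was the only one lower at an unadjusted p under 0.05, and Igfbp2 (0.23, no-tumor mean below 6.85) the only one higher. Over all genes, 1.52% were lower and 1.54% higher at that level. Krt14 and Krt5, the basal keratins, differed by 0.11 and 0.17 on the log2 scale, Acta2, smooth muscle actin, by 0.02 and Trp63 by 0.03. The list's level was 8.43 to 8.48 with a later tumor and 8.32 to 8.70 without.

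Lrg1, a secreted glycoprotein of vessels and inflammation, was at 11.46, 11.40 and 11.92 against 12.11 to 12.58, a log2 difference of -0.76 ± 0.13. Plvap, which forms the diaphragms of capillary pores, differed by -0.36 ± 0.07, and both genes' groups were apart. The 15 endothelial markers tested gave none lower and none higher at an unadjusted p under 0.05, with 10 below 0 and a median of -0.04. Pecam1 differed by -0.10 and Cdh5, the adhesion protein of endothelial junctions, by -0.14. Asic2, an acid-sensing ion channel (-0.33 ± 0.07), and Ptpn5, a tyrosine phosphatase (-0.57 ± 0.13, no-tumor mean below 6.85), completed the 6 lower genes.

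Milk genes were the largest positive differences, and rested on 2 of the 3 tumor animals. Csn2 (beta-casein) had log2 values of 5.56, 9.58 and 11.96 in tumor animals 1, 2 and 10, and 5.18, a median of 5.72 and 7.32 in the no-tumor animals. Csn1s2a (an alpha-S2 casein) was at 4.81, 8.49 and 10.85 against 4.88 to 6.02, and Csn1s1 (alpha-S1 casein) at 7.27, 10.14 and 10.64 against 6.80 to 8.22. In all 3 genes animals 2 and 10 were above every no-tumor animal, and animal 1 was inside or below the no-tumor range.

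The log2 differences were 2.99 ± 1.04 for Csn2, 2.70 ± 0.92 for Csn1s2a and 1.94 ± 0.59 for Csn1s1, with limma adjusted p of 1.00, 1.00 and 0.979. The no-tumor means of Csn2 and Csn1s2a were below 6.85, so their fold sizes are uncertain. Without tumor animal 1, the differences were 4.72, 4.32 and 2.98, and Csn1s1 and Csn1s2a passed (limma adjusted p = 0.0138 and 0.0156). Without tumor animal 10 they were 1.52, 1.30 and 1.30. Csn3, kappa-casein, was at 11.38, 12.29 and 12.30 against 10.59 to 11.72, a difference of 0.92 ± 0.27, again with animal 1 inside the no-tumor range.

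The milk protein gene Lalba and the folate receptor gene Folr1 were the only members of the milk and alveolar list whose groups were apart. In both all 3 tumor values were above, as in 0.576% of all genes. Lalba, alpha-lactalbumin, was at 7.10, 7.35 and 7.76 against 6.83 to 7.08 on the log2 scale, a difference of 0.45 ± 0.12, and Folr1 differed by 0.30 ± 0.08. All 10 tamoxifen values of Folr1 were below 6.85, so the size of its difference is uncertain. Of 18 members tested, 8 were higher and none lower at an unadjusted p under 0.05 (1.54% of all genes were higher), 15 lay above 0, and the median log2 difference was 0.23. The rest of the 8 were Lao1 (0.30) and Muc15, a membrane mucin (0.69). Btn1a1, the butyrophilin of milk fat globules (0.82 ± 0.37), Wap, whey acidic protein (0.09 ± 0.10, both means below 6.85), and Glycam1 (-0.03) did not reach that level. Leaving out tumor animal 10 reduced the count to 5.

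The mean of the milk list was 8.04, 8.67 and 9.08 in tumor animals 1, 2 and 10 and 7.76 to 8.20 in the no-tumor animals. Of 15 members of the prolactin, Jak2 and Stat5 list, none had an unadjusted p under 0.05 and the median was -0.05. Stat5a differed by 0.12, Stat5b by -0.05, Jak2 by -0.05, and Cish and Socs2, feedback genes induced by Stat5, by 0.10 and 0.01.

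**Figure D3:**
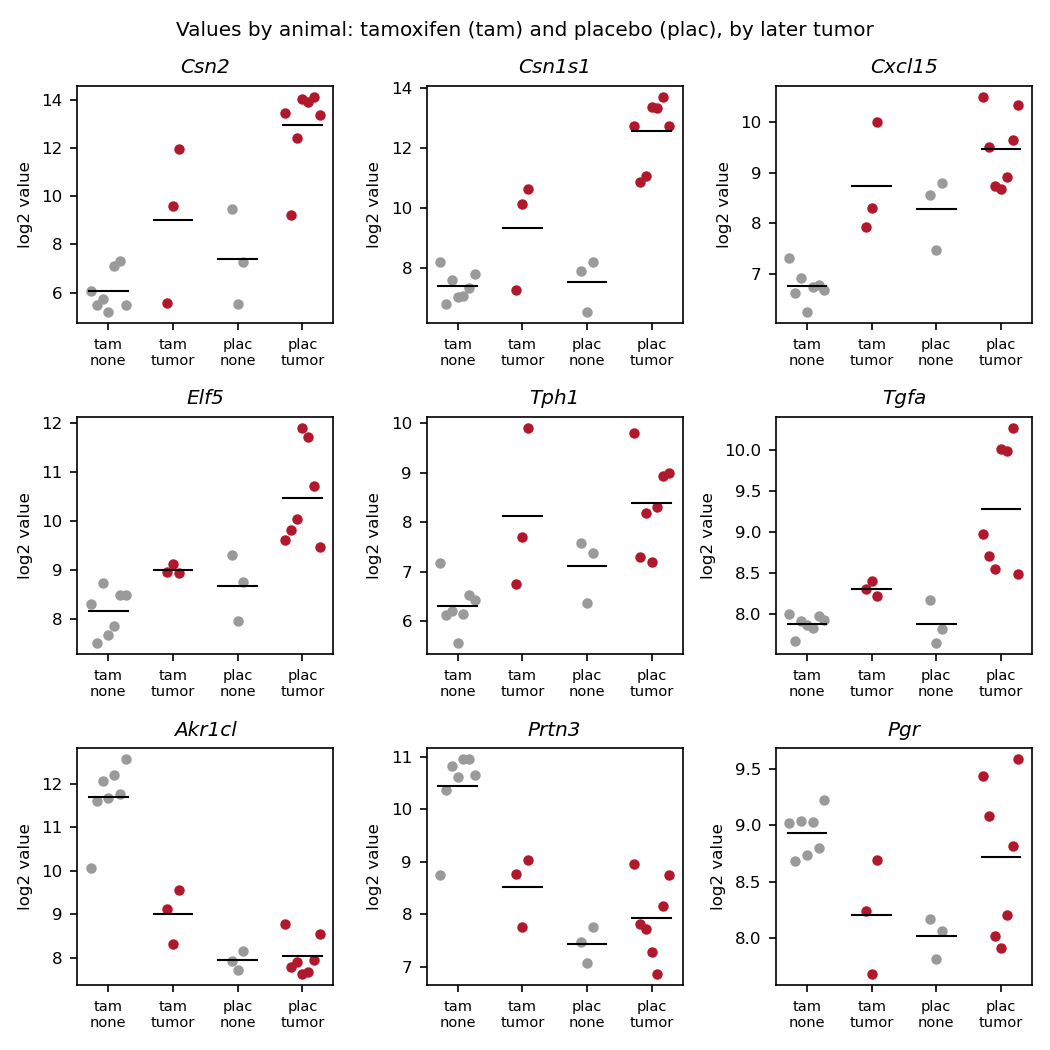
Log2 values of 9 genes in the 20 glands, by treatment (tam, tamoxifen, and plac, placebo) and later outcome, with 1 point per animal (red, later tumor) and a black line at the group mean. Csn2 and Csn1s1 are high in 2 of 3 tamoxifen tumor animals and run from 9.23 and 10.89 upward in the placebo tumor animals. Akr1cl and Prtn3 are highest in the tamoxifen glands without a later tumor. The exception is no-tumor animal 3 for Prtn3, which lies within the range of the tamoxifen tumor animals.

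Since the casein genes varied together, the bases before their start sites are shown for the palindromic Stat5 site TTCNNNGAA, which reads the same on both strands. The sequences are from RefSeq on GRCm38.p6, 5′ to 3′ on the gene's strand, the 250 bases before the start, with the motif in capitals.
Csn1s1, chr5:87665958-87666207 (plus strand): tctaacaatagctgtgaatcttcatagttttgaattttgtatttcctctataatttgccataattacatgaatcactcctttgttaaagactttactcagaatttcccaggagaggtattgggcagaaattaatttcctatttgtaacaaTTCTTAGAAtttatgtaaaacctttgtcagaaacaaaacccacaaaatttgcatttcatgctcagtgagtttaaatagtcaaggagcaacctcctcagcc
Csn2, chr5:87699426-87699675 (minus strand): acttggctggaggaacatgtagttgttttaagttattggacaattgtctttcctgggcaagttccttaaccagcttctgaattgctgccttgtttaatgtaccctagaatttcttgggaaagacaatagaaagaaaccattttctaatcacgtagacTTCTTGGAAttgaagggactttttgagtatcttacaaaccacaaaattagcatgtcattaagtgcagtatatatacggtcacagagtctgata
The motif began 100 bases before the start of Csn1s1 and 93 bases before that of Csn2. In Csn1s2a it lay 20 bases after the start, as TTCTTAGAA, and Glycam1 held TTCCCAGAA 145 bases before its start. Over windows from 250 bases before to 50 after a start, 4 of 14 milk and alveolar list genes with a RefSeq promoter held the motif (28.6%), beside 9.55% of all 27025 genes and 8.3% of 32851 promoters. Glycam1 did not share the casein genes' difference. Lalba and Lao1, which were higher at an unadjusted p under 0.05, held no motif in that window, and Csn3 was not among the 14 genes.

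Luminal progenitor genes were higher in part. Cxcl15, a chemokine of the interleukin 8 family made by epithelium, was at 7.93, 8.30 and 10.00 against 6.26 to 7.33 with a median of 6.74 on the log2 scale. Its groups did not overlap, and the log2 difference was 1.98 ± 0.36 (limma adjusted p = 0.256), 3.93-fold with a no-tumor mean of 6.77, so that size is uncertain. A second Cxcl15 probe set, with a mean log2 value of 6.79 over the 20 arrays, differed by 0.67. Elf5 was at 8.96, 9.11 and 8.94 against 7.51 to 8.74, a difference of 0.85 ± 0.25, and animal 1, low in caseins, was as high as the others. Plet1, a marker of progenitors (0.70), Cd14 (0.26), Lcn2, lipocalin 2 (0.76 ± 0.32), and Csn3 made up the 6 of 18 members higher at an unadjusted p under 0.05, against 1.54% of all genes, with none lower. Kit, the stem cell factor receptor of luminal progenitors, differed by 0.13 ± 0.11, Aldh1a3 by 0.23 and Sox9 by -0.04, and the list's median was 0.13.

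Pan-epithelial genes lay mostly above 0. Of 19 tested, 4 were higher at an unadjusted p under 0.05, none lower, and 16 were above 0, with a median log2 difference of 0.22 (of all genes, 1.54% were higher at that level). The count was 2 without tumor animal 10 and 10 without no-tumor animal 5. Esrp1 and Esrp2, epithelial splicing regulators, differed by 0.48 and 0.34, with no-tumor means below 6.85, Krt19, a luminal keratin, by 0.79 ± 0.30 and Cldn7, a tight junction protein, by 0.35. Epcam (0.41 ± 0.22) and Krt18 (0.35 ± 0.25) did not reach that level, and their groups overlapped. The list mean was 8.29 to 8.52 with a later tumor and 7.87 to 8.58 without. With that mean as a covariate, the differences were 2.42 for Csn2, 1.52 for Csn1s1, 1.68 for Cxcl15 and 0.50 for Elf5. Those of Lcn2, Btn1a1 and Kit were 0.34, 0.37 and -0.01 with the covariate, and 0.76, 0.82 and 0.13 without it.

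Hormone-sensing luminal genes were mixed. Pgr, the progesterone receptor and a target of oestrogen receptor signalling, was at 8.24, 7.68 and 8.69 against 8.68 to 9.23 with a median of 9.03, a log2 difference of -0.73 ± 0.18 (limma adjusted p = 0.714). Animal 10 reached the bottom of the no-tumor range, and without animal 2 the difference was -0.47. Esr1, the oestrogen receptor itself, was at 9.70, 10.31 and 9.70 against 9.16 to 10.04, a difference of 0.20 ± 0.19, and Foxa1, its pioneer factor, differed by 0.44.

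Tph1, which makes serotonin in mammary epithelium, was at 6.75, 7.71 and 9.91 against 5.56 to 7.18 and differed by 1.81 ± 0.54, with animal 1 inside the no-tumor range and a no-tumor mean below 6.85. Without tumor animal 10 its difference was 0.92. Prom1, a membrane protein of hormone-sensing cells, differed by 0.42. Of 12 hormone-sensing members tested, 2 were higher (Tph1 and Prom1) and 1 lower (Pgr) at an unadjusted p under 0.05, with a median of 0.11. Of all genes, 1.54% were higher and 1.52% lower at that level. On the oestrogen and progesterone response list, 2 of 11 were higher (Tfap2c, a transcription factor of luminal cells, 0.53 ± 0.11 with a no-tumor mean below 6.85, and Id4, a helix-loop-helix inhibitor, 0.38) and Pgr was lower. Myc, Ccnd1 and Tff1 differed by 0.08, -0.08 and 0.04.

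The EGF receptor list had 6 members above 0 and 6 below, with a median log2 difference of 0.00. Tgfa was the only one of 12 tested at an unadjusted p under 0.05. It was higher, as were 1.54% of all genes at that level. Tgfa had log2 values of 8.30, 8.41 and 8.22 in the tumor animals against 7.67 to 8.00 with a median of 7.91, so all 3 were above. The difference was 0.43 ± 0.08, 1.34-fold (limma adjusted p = 0.194). Other probe sets for Tgfa, with mean log2 values of 7.46 and 6.71, differed by 0.05 and -0.06, and no source used here says which of the 3, if any, reads the transgene RNA. Egfr differed by 0.10 ± 0.07 with the probe set used, and by 0.62 and 0.41 with the next 2 in level. Erbb2 and Erbb3, partner receptors, differed by -0.04 and 0.15, and Dusp6, Spry2, Spry4 and Etv4, which MAP kinase signalling induces, by -0.07, -0.01, -0.08 and 0.02.

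Cell division genes lay mostly above 0, at 18 of 19, with the highest list median of the 47, 0.31 on the log2 scale. At an unadjusted p under 0.05, 8 were higher, against 1.54% of all genes, and none lower. The groups were apart, with all tumor values above as in 0.576% of all genes, for Cdk1, the mitotic kinase (8.16, 8.28 and 8.52 against 7.63 to 8.10, a difference of 0.44 ± 0.12), and Cenpf, a kinetochore protein (0.27, with both means below 6.85, so that its size is uncertain). Top2a, topoisomerase II, differed by 0.56 and Mki67, the proliferation marker Ki-67, by 0.59 ± 0.27. Mki67 was at 7.42, 8.18 and 8.65 against 7.01 to 8.11, so animal 1 was inside the no-tumor range, and its difference was 0.31 without tumor animal 10 and 0.92 without animal 1. Without tumor animal 10 the list had 2 members higher rather than 8, and with any 1 animal left out it had at most 12. In level, the list mean was 7.26 to 7.70 with a later tumor and 6.93 to 7.41 without.

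Antibody genes showed the same order of tumor animals as the caseins. Ighm, the IgM heavy chain, was at 11.00, 13.50 and 14.06 in animals 1, 2 and 10 against 10.88 to 12.64, and Iglv1, a lambda light chain gene, at 7.14, 9.82 and 10.54 against 6.69 to 8.35. Jchain, which joins IgA and IgM chains, was at 10.01, 12.65 and 13.20 against 9.47 to 11.82. Their log2 differences were 1.25 ± 0.56, 1.51 ± 0.61 and 1.14 ± 0.65. In each of these genes animals 2 and 10 were above the whole no-tumor group while animal 1 was not. Not every antibody gene did so: in Igkv6-14, a kappa light chain gene (1.44 ± 0.84), animal 2 at 9.11 was inside the no-tumor range of 6.44 to 10.11. Of 9 plasma cell members tested, only Sdc1, the plasma cell and epithelial proteoglycan CD138, was higher at an unadjusted p under 0.05 (0.38). Of all genes, 1.54% were higher at that level. B cell markers gave no member at that level, with a median of -0.06, and Cd79a differed by -0.18 ± 0.30. The plasma cell list mean was 8.96 to 9.75 with a later tumor and 8.86 to 9.29 without. These values depended on the probe set. The next 2 Ighm probe sets in level, with mean log2 values of 11.62 and 11.54, differed by 0.00 and 0.14, and the next 3, at 11.28, 11.09 and 11.08, by 1.37, 1.66 and 1.51. A second Iglv1 probe set at nearly the same level (8.06 against 8.09) differed by 0.43. Immunoglobulin probe sets can cross-read related genes, so single immunoglobulin genes are uncertain.

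All 13 T cell markers tested were below 0, none at an unadjusted p under 0.05, with a median log2 difference of -0.08 (over all genes -0.02). Cd3e was at 10.04 to 10.11 with a later tumor, inside the no-tumor range of 9.87 to 10.38. At an unadjusted p under 0.05, 1.54% of all genes were higher and 1.52% lower. Of 28 chemokines and receptors, 2 were higher (Cxcl15 and the scavenging receptor Ackr2, 0.17) and 2 lower at that level. The lower ones were Ccl22, which attracts regulatory T cells (-0.42 ± 0.13), and Cxcl16 (-0.29), whose groups were apart. Macrophage markers had 1 of 17 higher (Cd14, also on the luminal progenitor list) and a median of -0.04. Interferon response, heat shock and major histocompatibility class II lists had none of 22, 13 and 10 at that level.

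Skeletal muscle genes were the most negative list, with all 17 tested below 0 and a median log2 difference of -1.22, and none reached an unadjusted p of 0.05. Acta1, skeletal actin, was at 10.02, 11.73 and 8.70 against 10.04 to 13.62, a difference of -1.62 ± 0.77, and Ckm, muscle creatine kinase, at 8.30, 9.82 and 7.76 against 8.20 to 12.76, a difference of -1.31 ± 0.85. The groups overlapped in both. A second Ckm probe set, with a mean log2 value of 7.25 over the 20 arrays, differed by -0.07. Muscle genes were 11 of the 19 with a 2-fold or larger negative difference. With the muscle list mean as a covariate the differences were 0.99 for Postn, 1.40 for Fos, -2.72 for Akr1cl and 3.17 for Csn2.

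Metabolic lists had few members at an unadjusted p under 0.05, where 1.54% of all genes were higher and 1.52% lower. Of 20 fatty acid synthesis genes, 19 were above 0, with a median of 0.12, and 1 was higher at an unadjusted p under 0.05 (Fads2, a fatty acid desaturase, 0.23). White adipocyte genes had 1 of 17 lower, Agt, angiotensinogen (7.99, 8.15 and 7.99 against 8.34 to 9.78, -0.89 ± 0.25, groups apart), with a median of -0.05. The 29 respiratory chain genes and 17 ribosomal protein genes had none at that level and medians of -0.02 and 0.00. Of 20 drug and steroid metabolising enzymes, 2 were lower, Akr1cl and its relative Akr1c13 (-0.22), while Akr1c18 and Akr1c14 differed by 0.17 and 0.06. On the IGF list, 4 of 14 were higher at an unadjusted p under 0.05 (the binding proteins Igfbp2, 0.23, Igfbp3, 0.45, and Igfbp5, 0.23, and the proteoglycan Gpc3, 0.25), and none without tumor animal 2. Oxidative stress genes had 2 of 15 lower, the glutathione enzymes Gsr (-0.16) and Gpx1 (-0.12). For p53 targets, 1 of 14 was lower (Sesn2, -0.33), and for the TGF beta and BMP list 1 of 24 (Tgfb2, -0.30).

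The remaining lists gave single members or none at an unadjusted p under 0.05, beside 1.54% of all genes higher and 1.52% lower. Cell death and involution genes had 1 of 16 higher (Igfbp5), glycolysis 1 of 18 (Aldoc, a brain-type aldolase, 0.40 ± 0.16), Schwann cell 1 of 8 (Egr2) and epidermis and hair 1 of 7 (Sprr1a, 0.61). No member reached an unadjusted p of 0.05 among 12 brown adipocyte, 7 mast cell, 2 blood, 16 cholesterol synthesis, 23 unfolded protein response, 19 matrix protease, 14 Notch, 15 circadian clock, 13 hypoxia and 17 breast cancer genes. Mmp12, a macrophage elastase on the protease list, differed by -1.05 with an SE of 1.01, and no-tumor animal 4 stood at 10.75 while the other no-tumor animals were between 5.21 and 7.14.

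**Figure D4:**
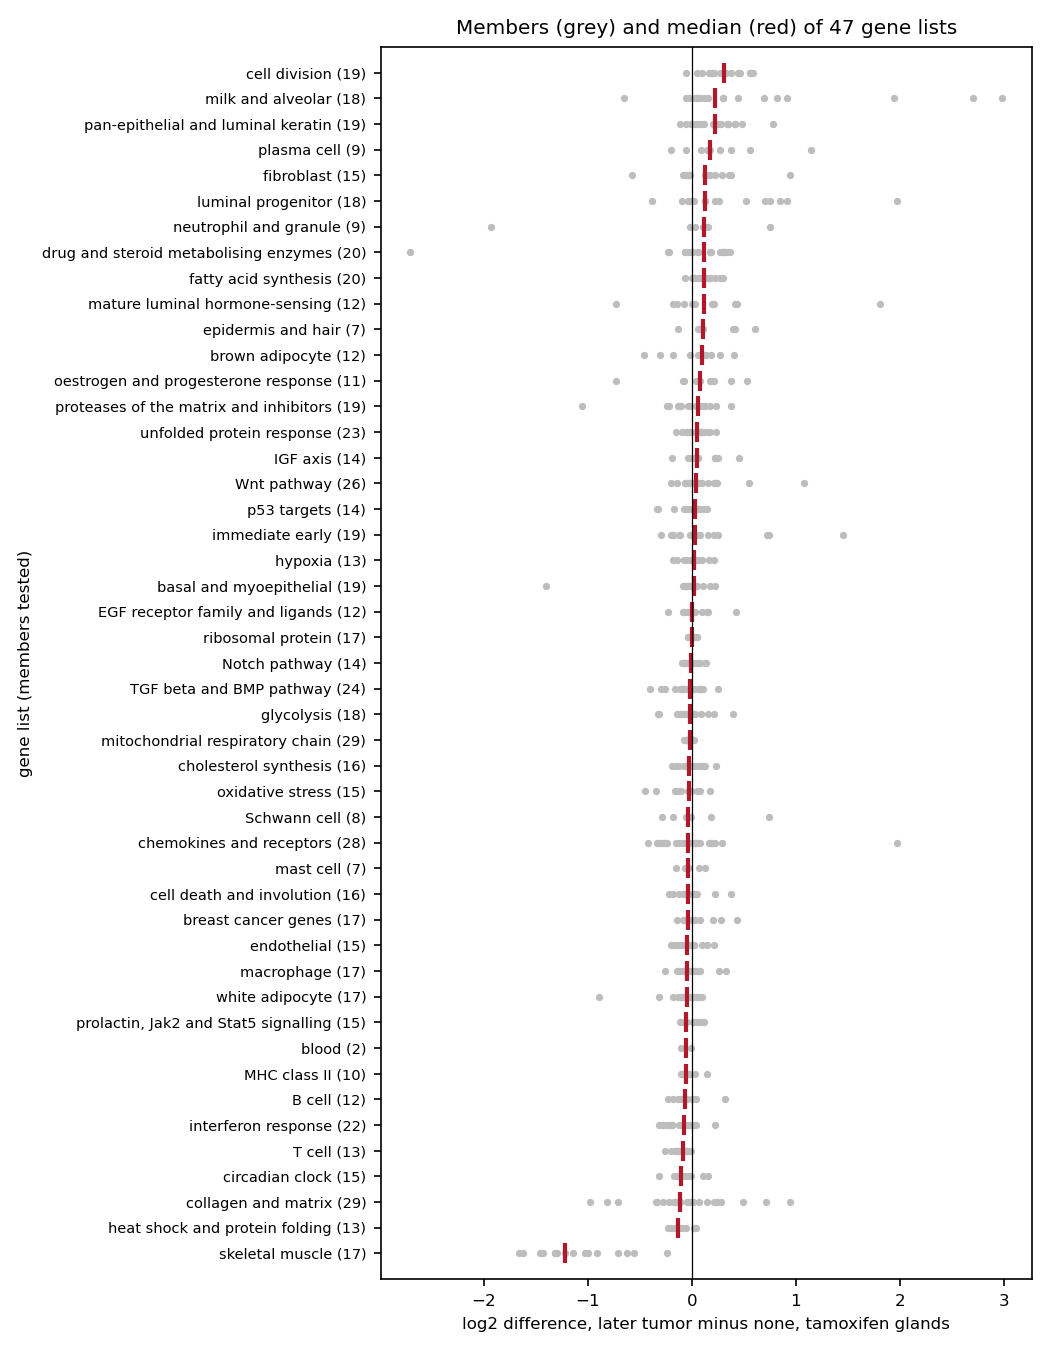
Log2 differences (later tumor minus none, tamoxifen glands) of the tested members of 47 gene lists, 1 grey point per gene, with the list's median as a red bar and the number tested in brackets. Cell division has the highest median (0.31), followed by the milk and alveolar (0.23) and pan-epithelial (0.22) lists, and skeletal muscle the lowest (-1.22).

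The placebo glands gave a second measure of the outcome difference, in other animals. Over all genes tested, 56.5% had the same sign in tamoxifen and in placebo glands. Among the 24 genes with the smallest p in tamoxifen glands, 17 had the same sign in placebo, 7 of them with an unadjusted p under 0.05 there, and none was opposite at that level (of all genes, 11.3% had such a p in placebo glands, 3.98% higher and 7.28% lower with a later tumor). The 7 genes were Tgfa, Cxcl15, Slc35f3, Tfap2c, Itm2a, Osr1 and Gas1. Of the placebo arrays, those of animals 7, 8 and 9 had the lowest mean correlations with the tamoxifen arrays (0.986, 0.981 and 0.991). Placebo animal 2 was close to animal 9, at 0.992. Animals 7, 8 and 9 all had a later tumor, so leaving them out changes only that outcome group. Without them, 18 of 24 had the same sign, against 57.4% of all genes. In that smaller set 7 had the same sign with an unadjusted p under 0.05, and 1 was opposite at that level, Prtn3 (8.38% of all genes had such a p). Itm2a and Gas1 then missed that level, and Il17b and Fibin reached it. No gene passed in the placebo comparison itself (limma smallest adjusted p = 0.0899, 1408 genes at an unadjusted p under 0.05).

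Tgfa differed by 1.41 ± 0.41 in placebo against 0.43 ± 0.08 in tamoxifen glands, and Tfap2c by 1.58 ± 0.53 against 0.53 ± 0.11, both on the log2 scale. Without placebo animals 7, 8 and 9 the placebo differences were 0.80 for Tgfa and 0.94 for Tfap2c. Cxcl15 differed by 1.19 ± 0.43 in placebo, where its level without a tumor was already 7.48 to 8.79. Csn1s1 differed by 5.03 ± 0.63 in placebo against 1.94 ± 0.59 in tamoxifen glands, and Elf5 by 1.79 ± 0.55 against 0.85 ± 0.25. Without those 3 animals the placebo differences were 4.34 for Csn1s1 and 1.06 for Elf5. The median log2 difference of the milk list was 1.23 in placebo and 0.23 in tamoxifen glands, that of the luminal progenitor list 0.68 and 0.13, and that of the pan-epithelial list 0.87 and 0.22. The placebo medians without animals 7, 8 and 9 were 0.82, 0.39 and 0.56. Skeletal muscle genes went the other way, at 0.32 and -1.22.

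The 6 lower genes were on the other side of 0 in placebo glands. Akr1cl, Prtn3 and Lrg1 differed by 0.10 ± 0.24, 0.50 ± 0.40 and 0.22 ± 0.35 in placebo glands, and Plvap, Asic2 and Ptpn5 by 0.04, 0.04 and 0.25. Without placebo animals 7, 8 and 9 Prtn3 differed by 0.87 ± 0.32, Akr1cl by 0.32, Lrg1 by 0.48, Plvap by 0.14 and Ptpn5 by 0.51. Pgr differed by 0.70 ± 0.36, Oxtr by 0.99 ± 0.22 and Col1a1 by 0.82 ± 0.39 in placebo, each opposite to its sign in tamoxifen glands, and by 1.01, 0.98 and 0.50 without animals 7, 8 and 9.

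The interaction, which tests whether the 2 outcome differences are unequal, called no gene (limma smallest adjusted p = 0.26, 565 genes or 4.52% at an unadjusted p under 0.05). The 3 smallest p were those of Gng12, Akr1cl and Pifo, each with limma adjusted p = 0.26. Gng12, a G protein gamma subunit, was at 10.35, 10.26 and 10.44 against 10.64 to 11.19 in tamoxifen glands, a log2 difference of -0.47 ± 0.11, and differed by 0.37 ± 0.10 in placebo glands. Its second probe set gave -0.49 in tamoxifen glands. Pifo, a ciliary protein, differed by -0.49 ± 0.11 in tamoxifen (tumor mean below 6.85) and 0.20 ± 0.07 in placebo glands. Of the 24 genes with the smallest p in tamoxifen glands, 9 had an interaction p under 0.05 before adjustment. The interaction holds the tamoxifen difference that chose these genes, so that count is a description and is not set against the share of all genes.

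**Figure D5:**
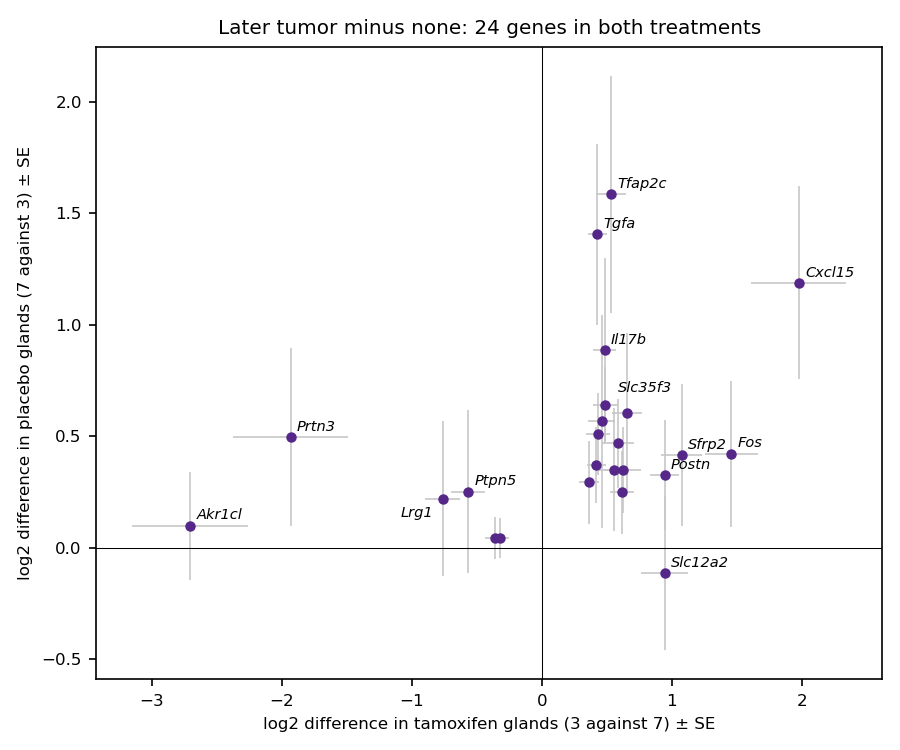
Log2 differences (later tumor minus none) of the 24 genes with the smallest p in tamoxifen glands, in tamoxifen glands on the x axis (3 against 7 animals) and in placebo glands on the y axis (7 against 3), with SE bars. Of the 18 genes on the right, 17 are above 0 in placebo too and Slc12a2 is at -0.11, while the 6 on the left, Akr1cl at -2.70 among them, are above 0 in placebo, from 0.04 for Plvap and Asic2 to 0.50 for Prtn3.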

How the data were processed

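The deposited values are log2 expression per probe set on Affymetrix arrays, which the authors computed using RMA, according to the labels and the submitters' processing notes. Software, version and build: not given in the sources used here. All 45101 probe sets were used as deposited. Of these, 34958 had 1 gene symbol in the platform annotation (34754 updated through their Entrez ID), 932 had several and 9211 none, and the last 2 kinds were left out. For each of 18194 genes, the probe set brightest on average over all 20 arrays was kept. Tested were 12499 genes that exceeded 6.85 (the overall median value) on 3 or more of the 20 arrays. The number of arrays limits the precision.

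Outcome was compared over the 10 tamoxifen arrays in R 4.3.3 with limma 3.58.1 (two-sided lmFit and eBayes, Benjamini-Hochberg, threshold 0.05). The interaction with treatment used all 20 arrays in 4 groups. Errors are SE, and folds are absolute log2 differences taken back to the linear scale. The procedure was tested on simulated data. Named were the 24 genes with the smallest p (none passed), the 3 smallest p of the interaction, up to 4 members per list by moderated statistic and a set of genes given whether or not they passed. Other list members and genes with 2-fold differences were named after their values were seen. Members, the 47 lists and tests were chosen with earlier results of these data known. Of 872 listed genes, 803 had a probe set. Promoters were from RefSeq, GRCm38.p6.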

Additional observations from a re-analysis of the deposited data

Results flagged for a closer look

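Among 56 genes examined in the 7 tamoxifen animals without a later tumor, 3 had 1 animal far from the rest by Dixon's criterion, which chance alone meets in about 1 of 20 groups. A count of 3 among 56 genes is therefore near what chance alone would give. No-tumor animal 3 was lowest for Akr1cl, at 10.06 on the log2 scale with the next animal at 11.60, and for Prtn3, at 8.76 with the next at 10.37. No-tumor animal 8 was lowest for Hmcn1, at 5.71 with the next at 6.40. Gng12 lay on opposite sides in the treatments: every tamoxifen tumor animal was below every tamoxifen animal without a tumor, and every placebo tumor animal above every placebo animal without one. Its interaction was -0.85 on the log2 scale (limma adjusted p = 0.26, not past the threshold). Gng12 was examined because its interaction p was among the 3 smallest, so this separation is a description.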

How the results depend on the processing

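With 3 tumor animals, the count of genes past the threshold moved with the setting. The main comparison called 0 genes (382 at an unadjusted p under 0.05). The fit of 4 groups over 20 arrays called 1, that fit with the replicate block 5, the animals numbered 6 to 10 alone, which hold 1 tumor animal, 14, quantile normalization 1, the mean of all probe sets of a gene 2, array weights 4, a filter on 10 of the 20 arrays 1, and every probe set tested separately 3. Leaving out 1 animal gave 0 to 6 genes: 6 without tumor animal 1, 2 without tumor animal 10, 5 without no-tumor animal 3 and 1 without no-tumor animal 8. For the interaction, the main count was 0, the replicate block gave 2, array weights 1, and leaving out 1 animal 0 to 3, with 3 without no-tumor animal 3. The replicate numbers were not treated as a pairing in the main fit, and whether they mark one is not known. Of 10 pairs of same-numbered arrays, 4 had deviations that correlated over 0.1, from a lowest of -0.10 to a highest of 0.59 over all pairs. For 3 placebo arrays the best correlation was with their own number. The 4-group fit gave 2069 genes at an unadjusted limma p under 0.05 with the replicate block and 262 without it. Of the 24 genes with the smallest p, 23 kept their direction in every alternative run, and Slc12a2 turned to -0.11 with the replicate block. All 24 had 1 direction in both runs of numbers. Shifting arrays to 1 median or quantile normalization moved the median of all genes by -0.01 and 0.01. Member counts without each animal, and placebo values without placebo animals 7, 8 and 9, were added after seeing the data. The cause of these differences was not tested.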
